A study of Homo sapiens with 6 samples.

Results

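Peaks on human chromosomes 4, 13 and 18 were examined in RNA recovered with an antibody to RBM8A from AGS, a gastric adenocarcinoma cell line labelled wild type and given no treatment. A member is any row of the 3 deposited peak lists whose chromosome is 4, 13 or 18. The members were 83 of 1480 peaks in replicate 1, 100 of 2155 in replicate 2 and 99 of 1802 in replicate 3, which is 282 of 5437 rows in all. The series has 3 immunoprecipitates and 3 input samples of the same untreated cells, under 1 shared batch label. Each immunoprecipitate has 1 peak list, and the inputs were not analysed here. No sample used a control antibody, so RNA held by RBM8A and RNA held by beads or antibody cannot be told apart. Nothing in the labels says that replicates came from separate cultures, so their spread may be technical. The lists carry no gene names, so the labelled cell type was not checked against marker genes.

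RBM8A, known also as Y14, binds MAGOH and, together with EIF4A3, forms the heart of the exon junction complex. Splicing leaves this complex on messenger RNA just upstream of a newly made junction, where it takes part in export, translation and nonsense-mediated decay. Antibody recovery without crosslinking brings down whole ribonucleoprotein particles, so a peak need not mark a contact site. Whether reads run along the whole of a peak cannot be read from the lists. Which genes a chromosome carries and which of them the cells transcribe can affect where peaks appear, and their part was not tested here. Chromosomes 4, 13 and 18 are known as gene-poor. Chromosome 13 is acrocentric, with an unassembled short arm, and chromosome 18 tends to lie near the edge of the nucleus.

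Positions refer to hg19, with the first base as 1, and peaks have no strand. The submitters' processing notes name hg38, and the peaks of chromosome 13 bear on this directly. Of them, 6 end past the hg38 end of that chromosome at 114364328, while 0 end past its hg19 end at 115169878. The farthest, in replicate 1, ran from 115067710 to 115070130. Over the whole genome, 57 peaks on 8 chromosomes ended past an hg38 end and 0 past an hg19 end. No annotation or sequence of that build was used, so regions are given by position, and whether a member lies in a gene, exon, intron or UTR was not analysed here.

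Peaks were sparse on these chromosomes per unit of length, and chromosomes 4, 13 and 18 were unlike each other. Together they carried 0.216, 0.260 and 0.258 peaks per Mb in replicates 1, 2 and 3, and the other 19 autosomes carried 0.544, 0.794 and 0.661. The members lay below the rest in each replicate, with a mean difference of -0.422 ± 0.104 peaks per Mb (SD, n = 3). A two-sided exact permutation test over replicates gave p = 0.25, the smallest that 3 replicates allow, so no comparison of members with the rest here can pass 0.05. Chromosome 18 was the sparsest autosome in every replicate, with 8, 6 and 13 peaks. Chromosome 4 held 32, 59 and 38 peaks, or 0.225 ± 0.0742 per Mb (SD, n = 3), and ranked 2, 3 and 2 from the sparse end of the 22 autosomes. Chromosome 13 held 43, 35 and 48 peaks, or 0.365 ± 0.0569 per Mb (SD, n = 3), and ranked 8, 2 and 9. Its range of 0.304 to 0.417 overlapped that of chromosome 4, 0.167 to 0.309. Both lay above that of chromosome 18, 0.0768 to 0.167, with the lowest value of chromosome 4 just above the highest of chromosome 18. All these rates and ranks use full hg19 lengths. For chromosome 13 that length includes the unassembled short arm, where no peak can be called, and density over assembled sequence was not computed.

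Set against gene number, chromosome 13 ranked higher among the autosomes than it did per Mb, in each replicate. The RefSeq table used here, of assembly GRCh38.p14, lists 770 protein-coding genes on chromosome 4, 338 on chromosome 13 and 270 on chromosome 18. Only the chromosome of each gene was taken from it. Full hg19 lengths were used, so that of chromosome 13 includes its unassembled short arm. Chromosomes 4, 13 and 18 then have 4.03, 2.93 and 3.46 coding genes per Mb, against 7.11 for the other autosomes. Chromosomes 13, 18 and 4 had the lowest values of all 22, in that order. The label gene-poor therefore held for each of them. Per 100 coding genes, chromosome 13 carried 12.7, 10.4 and 14.2 peaks in replicates 1, 2 and 3, a mean of 12.4 ± 1.94 (SD, n = 3). The other 19 autosomes carried 7.65, 11.2 and 9.30. Chromosome 13 was thus above them in replicates 1 and 3 and below in replicate 2, and ranked 20, 13 and 20 from the sparse end. Chromosome 18 remained the lowest of the 22 in every replicate, with 2.96, 2.22 and 4.81 peaks per 100 coding genes, and chromosome 4 had 4.16, 7.66 and 4.94. Gene counts do not say which genes AGS cells transcribe, and the part of transcription in these differences was not tested.

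**Figure D1:**
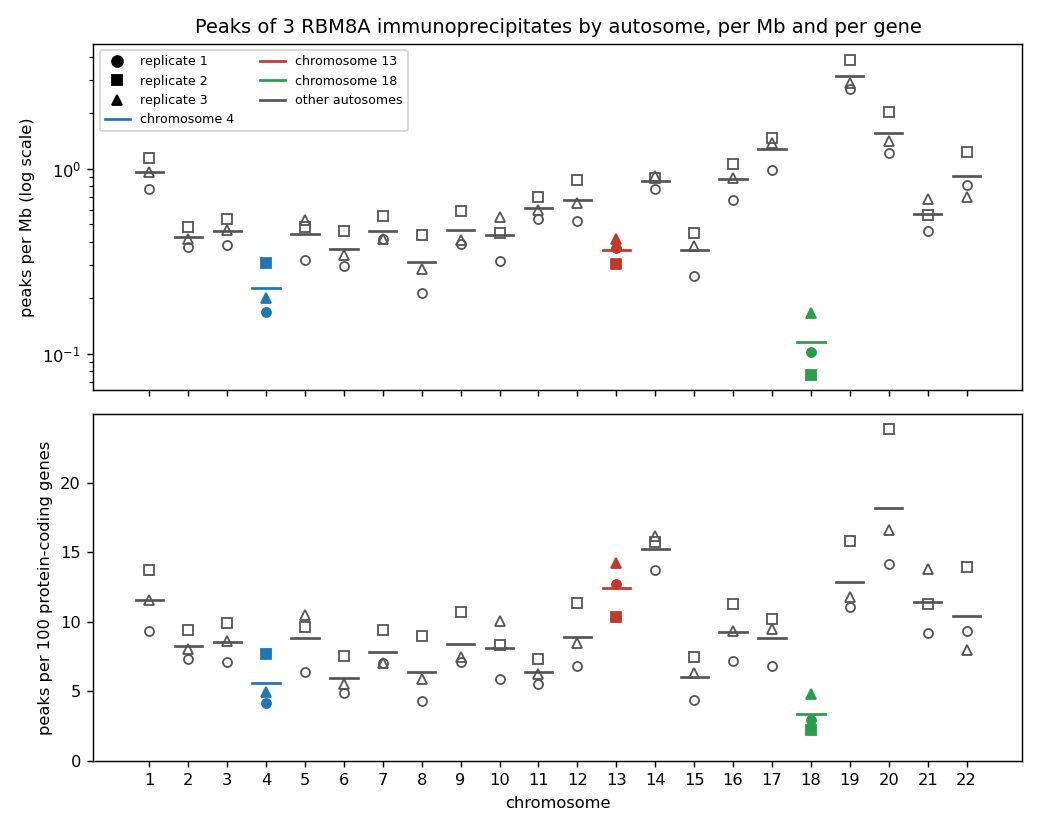
Peaks per Mb (upper panel, log axis) and per 100 protein-coding genes (lower panel) of each autosome, with 1 symbol per replicate and a line at the mean of 3 replicates. Chromosome 18 is lowest in both panels, while chromosome 13 has a mean of 0.365 per Mb and 12.4 per 100 coding genes.

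Most 1 Mb windows of each of these chromosomes held no summit of a member. Of 387 windows of 1 Mb on the 3 chromosomes, 317 held no summit in any list, 70 held a summit in at least 1 list and 24 held a summit in every list. Of these 24 windows, 12 were on chromosome 4, 10 on chromosome 13 and 2 on chromosome 18. The fullest window was on chromosome 13 from 113 to 114 Mb, with 11, 11 and 6 summits in replicates 1, 2 and 3. Chromosome 4 had 5, 5 and 8 summits between 1 and 2 Mb. A window at 75 to 76 Mb of chromosome 13 held 4 in each replicate. The windows named here were picked after their counts were seen. The 317 empty windows include those on the unassembled short arm of chromosome 13, which could not hold a summit. Windows were not counted on the other autosomes, so the number of empty ones is not shown to be particular to these chromosomes.

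The far end of the long arm of chromosome 13 accounted for a large share of that chromosome's peaks. This stretch, picked after its values were seen, runs from 113 Mb to the chromosome end and spans 2.17 Mb, or 1.88% of the chromosome. It held 18 of 43, 15 of 35 and 11 of 48 peaks, which is 41.9%, 42.9% and 22.9%. Its density was 6.76 ± 1.62 peaks per Mb (SD, n = 3). By contrast, 0 summits in any list lay between 49 and 75 Mb, a stretch of 26 Mb. Chromosome 4 had 7, 13 and 10 peaks in its first 5 Mb, or 23.4% ± 2.52 of its peaks in 2.62% of its length (SD, n = 3). On chromosome 18 the first 20 Mb held 6 of 8, 3 of 6 and 12 of 13 peaks, and 0 lay past 50 Mb, where 36.0% of the chromosome lies. These stretches were also picked after their values were seen, and no test was made of them.

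Spacing between neighbouring summits of a list was wider at the median than on the other autosomes, except on chromosome 13. Its median over the 3 chromosomes was 350, 221 and 450 kb, and over the other 19 autosomes it was 216, 99 and 134 kb. On chromosome 13 the median was 83.7, 36.7 and 67.0 kb, shorter than on the other autosomes in every replicate although its peaks per Mb were fewer. On chromosome 4 the median was 1172, 228 and 541 kb. On chromosome 18 it was 2929, 4408 and 576 kb, over 7, 5 and 12 distances. Distances under 100 kb made up 45.3% ± 2.51 of those among the members and 47.0% ± 3.39 of those among the rest (SD, n = 3). Their ranges over replicates, 42.5% to 47.4% and 43.4% to 50.1%, overlapped. Distances of at least 1 Mb made up 39.1% ± 4.38 and 27.2% ± 3.58, and these ranges, which were at least 35.1% and at most 30.8%, did not overlap. Spacing follows from the number of peaks per Mb, so it is a description and no separate result, and it was not tested. When summits less than 100 kb apart were counted as 1 cluster, the members formed 49, 54 and 55 clusters, of which 31, 30 and 32 held a single peak. The largest had 6, 7 and 7 peaks.

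**Figure D2:**
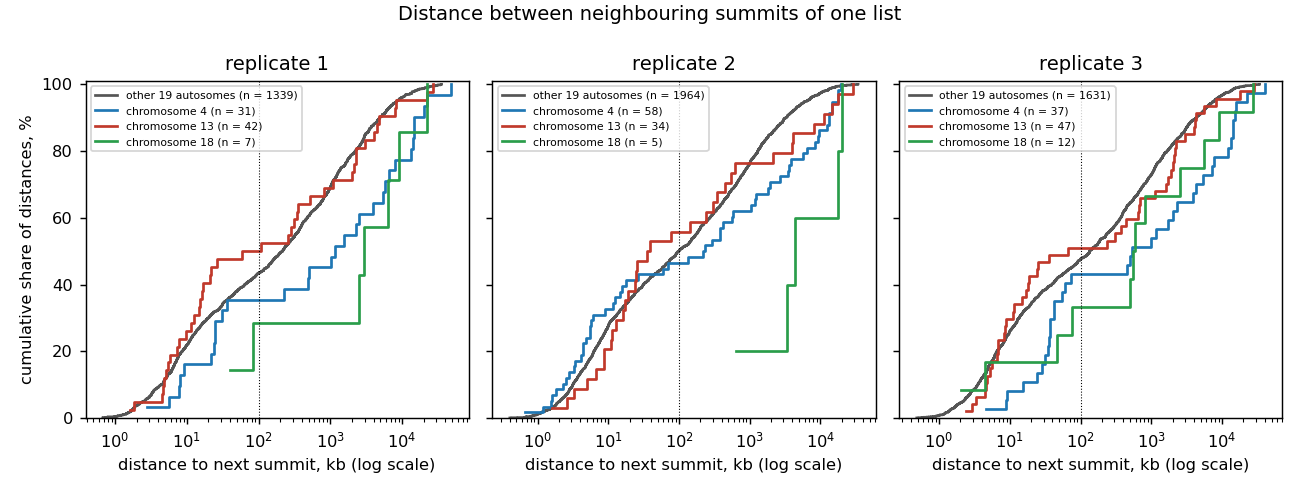
Cumulative share of distances between neighbouring summits of 1 list, in kb on a log axis, with 1 panel per replicate and a dotted line at 100 kb. At 100 kb the line of chromosome 13 stands at 50.0%, 55.9% and 51.1% and that of chromosome 18 at 28.6%, 0% and 33.3% in replicates 1, 2 and 3.

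Members were wider than other autosomal peaks at the median. Median widths of the members were 2200, 2066 and 2223 bp in replicates 1, 2 and 3, against 1847, 1541 and 1793.5 bp for the rest. The difference was above 0 in 3 of 3 replicates, with a mean of 436 ± 86.2 bp (SD, n = 3, exact permutation p = 0.25). Chromosome 13 had the widest, with medians of 2551, 3096 and 2558.5 bp. Chromosome 4 had medians of 1839, 1982 and 2450 bp and chromosome 18 of 1925.5, 1001 and 1555 bp. Chromosome 13 was thus above the rest in every replicate, chromosome 4 in replicates 2 and 3, and chromosome 18 in replicate 1 alone. Very wide peaks did not differ in 1 direction. Peaks of at least 10 kb numbered 11, 7 and 5 among the members, or 13.3%, 7% and 5.05%, where the background over all peaks of a list was 11.2%, 8.12% and 9.05%. The members stood above the background in replicate 1 and below it in replicates 2 and 3. Of these very wide members, 8, 6 and 2 lay on chromosome 13, 3, 1 and 3 on chromosome 4, and 0 on chromosome 18 in every replicate.

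Despite different peak counts, the length covered by members was nearly the same in each list, at 472, 471 and 460 kb. That was 1.22 ± 0.0184 kb per Mb (SD, n = 3), against 3.87 ± 0.281 kb per Mb on the other autosomes. Chromosome 13 contributed 318, 310 and 299 kb, chromosome 4 136, 153 and 140 kb, and chromosome 18 18.8, 8.66 and 20.6 kb. The widest member lay on chromosome 13 in every replicate, at 71595, 117760 and 118082 bp, and in 1 and the same region, described below. On chromosome 4 the widest peak was at a different position in each list, at 40910461 with 26071 bp, at 151773992 with 14780 bp and at 39827272 with 12029 bp. None of these was overlapped in both other lists. The widest peaks of chromosome 18 had 5267, 3914 and 4759 bp, and those of replicates 2 and 3 were in the same place, from 19204137 and 19204047.

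Few fragments supported a typical member. The number of fragments stacked at a summit, its pileup, could be worked back from the deposited fold and p-value for 83 of 83, 100 of 100 and 99 of 99 members. The read totals of the libraries are unknown. The median pileup of the members was 5 in each replicate and that of the rest was 6 in each. A pileup of 4 or 5 was found in 45, 57 and 51 members, or 54.2%, 57.0% and 51.5%, against 41.6%, 38.6% and 42.0% of the rest. A pileup of at least 10 was found in 12, 16 and 11 members, or 14.5%, 16.0% and 11.1%, against 24.3%, 26.0% and 25.2%. This share was lower in 3 of 3 replicates, with a mean difference of -11.3 ± 2.37 percentage points (SD, n = 3, exact permutation p = 0.25). By counting error alone, 5 fragments have an exact 95% Poisson interval of 1.62 to 11.7, and 10 fragments one of 4.80 to 18.4. Reads that carry no molecular identifier need not be separate molecules, so the true uncertainty may be wider.

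Depth also varied among the 3 chromosomes. Median pileups were 6, 7 and 6 on chromosome 13, 5, 4 and 5 on chromosome 4, and 4.5, 4.5 and 4 on chromosome 18. The deepest member had 27, 21 and 26 fragments and lay on chromosome 13 in every replicate. No peak of chromosome 4 exceeded 13, 18 and 11 fragments, and none of chromosome 18 exceeded 10, 13 and 9.

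Fold, the authors' ratio of pileup to expected level after 1 is added to each, did not set the members apart at the median. It was 4.22, 3.79 and 3.97 in the members and 4.16, 4.16 and 3.97 in the rest, so that the members were higher in replicate 1, lower in replicate 2 and equal in replicate 3. The highest fold was 8.67, 9.29 and 7.80 among the members and 54.2, 78.6 and 70.6 among the far more numerous other peaks, and a maximum rises with the number of peaks. Many members shared an identical fold because they had the same small pileup over the lowest expected level of the list, called its floor. In replicate 2, 35 of the 100 members had a fold of 3.57, which is 4 fragments over an expected 0.3997. Summits at the floor, within 0.5% of the lowest expected level, made up 59.0%, 53.0% and 49.5% of the members and 50.4%, 42.6% and 39.3% of the rest. Members with a −log10 q of at least 5 numbered 6, 10 and 15, or 7.23%, 10.0% and 15.2%, against 13.5%, 15.6% and 16.8% of the rest.

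The share of members that recurred in the other lists was below the background in each replicate. At least 1 bp was overlapped in both other lists by 22, 21 and 21 members, or 26.5%, 21.0% and 21.2%, where the background over all peaks of a list was 32.4%, 22.2% and 26.5%. Exact 95% binomial intervals of the members' shares were 17.4% to 37.3%, 13.5% to 30.3% and 13.6% to 30.6%, and each contains the background of its list. These intervals are wide and treat neighbouring peaks as independent, so they do not show that the shares equal the background. Against the other 19 autosomes, with 32.7%, 22.4% and 26.7%, the members differed by -6.19, -1.44 and -5.52 percentage points, a mean of -4.38 ± 2.57 (SD, n = 3, exact permutation p = 0.25). Overlap is mutual between lists, so recurrence values of the 3 lists rest on many of the same regions and are not independent. Their SDs and p-values, here and below, therefore do not measure a spread between separate samples. Overlap in at least 1 other list was found for 47, 48 and 47 members, or 56.6%, 48.0% and 47.5%, where the background was 61.5%, 49.2% and 53.9%. The mean difference from the rest was -4.11 ± 2.74 percentage points (SD, n = 3, exact permutation p = 0.25). Single replicates moved this: without replicate 2 the difference in recurrence in the 1 other list left was -1.18 points, and without replicate 1 it was -6.47. The difference in recurrence in both other lists turned positive, to 1.46 points, when an overlap had to cover 50% or more of each peak, and to 1.02 with summits within 100 bp.

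The 3 chromosomes did not recur alike. On chromosome 13, 14 of 43, 13 of 35 and 13 of 48 peaks were overlapped in both other lists, or 32.6%, 37.1% and 27.1%. Its share was within 1 point of the other autosomes in replicates 1 and 3 and higher in replicate 2, and its exact intervals, such as 21.5% to 55.1% in replicate 2, are wide. On chromosome 4 it was 8 of 32, 8 of 59 and 8 of 38, or 25%, 13.6% and 21.1%. On chromosome 18 it was 0 of 8, 0 of 6 and 0 of 13, which by a limit of 3 counts allows shares of up to 37.5%, 50.0% and 23.1%. The exact 95% binomial upper bounds were 36.9%, 45.9% and 24.7%. With chromosome 13 left out, a choice made after the data were seen, the difference from the rest was -11.3 ± 1.299 percentage points (SD, n = 3). The same 8 regions of chromosome 4 supply the recurring peaks of each list, so this SD reflects the differing peak totals and gives no replicate spread.

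Recurrence followed summit depth among the members as it did elsewhere. At a pileup of 4 or 5, 8.52% ± 3.99 of members were overlapped in both other lists, against 10.8% ± 3.35 of the rest (SD, n = 3). At 6 or 7 it was 20.2% ± 8.44 against 18.3% ± 3.73, and at 8 or 9 it was 27.6% ± 7.12 against 32.6% ± 11.9. In each of these 3 classes the difference between members and rest changed sign between replicates. At 10 or more, 83.3%, 68.8% and 81.8% of 12, 16 and 11 members were overlapped in both other lists, against 66.7%, 50.2% and 61.2% of the rest. The members' shares were 16.7, 18.6 and 20.6 points above those of the rest, but their exact 95% binomial intervals, 51.6% to 97.9%, 41.3% to 89.0% and 48.2% to 97.7%, contain the shares of the rest, and the difference was not tested. For recurrence in at least 1 other list, the same class had 84.9% ± 5.86 and 82.5% ± 8.73, ranges that overlap. These few deep members are largely the same regions seen in each list, so the 3 values are not independent of each other and give no replicate spread. Averaged over the 4 depth classes with the members as weights, the difference in recurrence in both other lists was 1.51 ± 1.97 points, above the unadjusted value of -4.38.

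**Figure D3:**
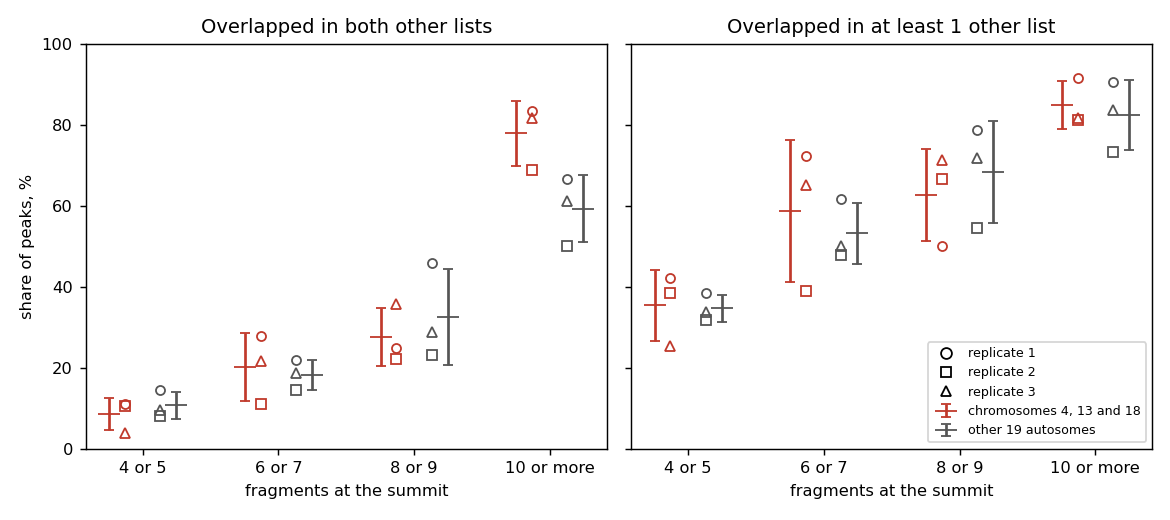
Share of peaks overlapped in both other lists (left) and in at least 1 other list (right), in %, by the number of fragments at the summit, with 1 symbol per replicate and the mean ± SD of 3 replicates beside them. At 10 or more fragments the left panel has means of 78.0% for chromosomes 4, 13 and 18 and 59.4% for the other 19 autosomes.

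Joined wherever they overlapped, the members formed 193 regions, of which 20 held a peak of every list, 33 a peak of exactly 2 lists and 140 a peak of 1 list. The share in every list was 10.4%, with an exact 95% binomial interval of 6.45% to 15.6%, where the background over all 3584 regions was 12.1%. The share in exactly 2 lists was 17.1%, where the background was 18.3%. Chromosome 13 had 12 of 79 regions in every list (15.2%), chromosome 4 had 8 of 92 (8.70%) and chromosome 18 had 0 of 22, which by the same limit of 3 counts allows a share of up to 13.6% (exact 95% upper bound 15.4%). The exact interval of each contains the background, 8.10% to 25.03% for chromosome 13 and 3.83% to 16.4% for chromosome 4. Such wide intervals, which treat regions as independent, do not show that the shares equal the background. Of the 20 regions, 16 held exactly 1 peak of each list and 19 had at least 1 bp covered in all 3. The 20 regions are given below in full, with the best peak by fold of each list standing for that list.

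The 5 regions at the end of chromosome 13 included the deepest member of replicates 1 and 2. The region from 114287561 to 114290376 had pileups of 27, 18 and 22 fragments in replicates 1, 2 and 3, the highest median of the 20 regions, and folds of 4.31, 6.91 and 3.77. Its summits in replicates 2 and 3 were 8 bp apart, while that of replicate 1 lay 1410 bp further on, near the peak's right end. Just to the left, a region from 114240164 to 114286214 was covered by a single peak of 46051 bp in replicate 2, by 3 peaks in replicate 1 and by 2 in replicate 3. Its best peaks had folds of 6.33, 5.62 and 7.28, a mean of 6.41 ± 0.831 (SD, n = 3), and pileups of 8, 21 and 9. Of the 20 regions it had the highest mean percentile rank by fold. A further region, from 113965266 to 113973681, was outlined almost identically in each list, with widths of 8270, 8416 and 8288 bp. Its fold was 8.21 and 7.80 in replicates 1 and 3 but 3.15 in replicate 2, although the pileup there was the highest of the set (12, 15 and 11). The expected level at the summit was 0.583 and 0.539 in replicates 1 and 3 and 4.08 in replicate 2.

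A pair of regions closer to the centre completed this cluster. In that from 113460585 to 113473636, replicate 2 had a fold of 8.57, replicate 1 of 4.22 and replicate 3 of 7.28. This was the exception among the 20 in which no base was covered in all 3 lists: the peaks of replicates 1 and 3 each met the long peak of replicate 2 and not each other. The region from 113487256 to 113488940 was shallow, with 7, 4 and 5 fragments, at the floor in each replicate, and folds of 5.62, 3.57 and 4.37.

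A second group lay near 76 Mb on chromosome 13. The region from 75936175 to 76054258 was the longest of the 20, at 118084 bp. A single peak spanned it in replicates 2 and 3, whereas replicate 1 had a peak of 71595 bp and another of 45363 bp, parted near 76008300. In replicate 2 it carried the highest fold of any member, 9.29, from 12 fragments over the floor. Folds in replicates 1 and 3 were 4.22 and 3.38, so the mean of 5.63 ± 3.197 (SD, n = 3) spans values that differ more than in any other of the 20 regions. The neighbouring region from 75900449 to 75901924 held the highest fold of replicate 1, at 8.67, with 15 fragments. Replicates 2 and 3 had folds of 5.46 and 5.09 there, with 14 and 6 fragments. Its summits in replicates 1 and 2 were 5 bp apart.

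Between these groups, chromosome 13 had 4 more regions of all replicates. That from 99114112 to 99127349 held 2 peaks in each list. Its best peaks by fold had summits 35 bp apart in replicates 1 and 3, at 99114177 and 99114212. That of replicate 2 lay elsewhere, at 99127315. A further peak per list, picked after its values were seen, had its summit within an 8 bp stretch from 99118709 to 99118717, with pileups of 14, 17 and 26 and low folds of 3.12, 2.64 and 3.53. That from 107211904 to 107220126 had summits within 67 bp of each other, pileups of 10, 14 and 21 and folds of 3.53, 3.83 and 5.41. The regions from 97995573 to 97999065 and from 98010044 to 98017303 were shallow, with 5, 5 and 4 and with 5, 4 and 6 fragments. In the latter, replicate 1 had 2 peaks tied at a fold of 4.22. The first shared no base with the peak of replicate 2, and the second, from 98014628 to 98017178, overlapped the peaks of both other replicates.

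The remaining region of chromosome 13, from 20304443 to 20315773, had the closest summits of the 20. They lay at 20304482, 20304484 and 20304484, the widths were 11080, 11306 and 11302 bp, and 97.8% of its length was covered in all 3 lists. Pileups were 8, 11 and 9 and folds 3.34, 4.37 and 3.95, a mean of 3.89 ± 0.515 (SD, n = 3). The summit stood at the left edge of the peak in each.

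Chromosome 4 had 8 regions of all replicates, each with 1 peak per list. Summits lay within 100 bp of each other in 2 of them. The region from 77949880 to 77951868 had 11 fragments in every replicate, with summits at 77950031, 77950055 and 77950051. Its folds were 5.29, 3.60 and 2.95, with expected levels of 1.27, 2.33 and 3.06. The region from 174254723 to 174255432 was the shortest of the 20, at 710 bp, with 13, 12 and 8 fragments, summits within 71 bp and folds of 2.68, 4.50 and 3.55. The region from 24578349 to 24582613 had the highest fold of chromosome 4 in replicate 1, at 6.09, and 4.44 and 4.45 in replicates 2 and 3. Its outline was repeated, with widths of 4179, 3805 and 4182 bp, but its summits were spread over 4113 bp.

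In the other regions of chromosome 4 no pair of summits lay within 100 bp, and outlines were repeated to differing degrees. Bases covered in all 3 lists made up 94.3% and 94.8% of the regions from 54319370 and 25750286. They made up 74.3%, 78.6% and 77.2% of those from 25819805, 39875984 and 10099665. The region from 54319370 to 54324836 had widths of 5155, 5290 and 5467 bp and folds of 4.22, 3.64 and 7.28, with summits 4750 bp apart. That from 25750286 to 25758533 had widths of 8248, 7844 and 7995 bp and pileups of 6, 5 and 6. Its neighbour from 25819805 to 25821436 had 4, 6 and 6 fragments. The region from 39875984 to 39878501 had 7, 5 and 10 fragments and folds of 3.53, 3.66 and 4.34. The region from 10099665 to 10100671 had 13, 5 and 7 fragments and folds of 2.68, 4.29 and 3.96, so that its deepest summit had the lowest fold.

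**Figure D4:**
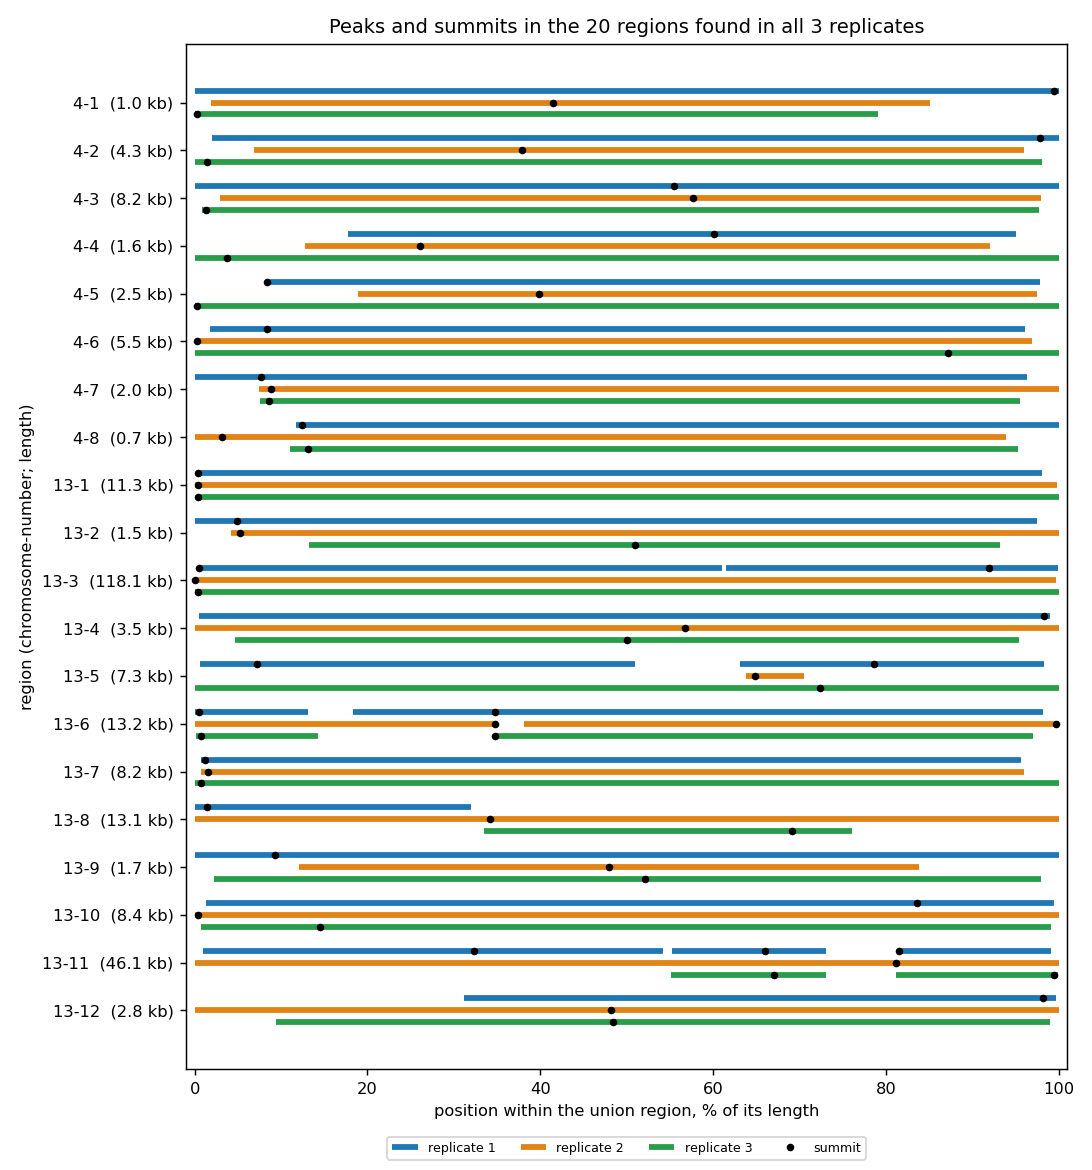
Peaks (bars) and summits (dots) of each replicate in the 20 regions of all replicates, drawn as % of the region's length and numbered on each chromosome from the lowest start. Most outlines span the region in every replicate, with a median of 81.1% of bases covered in all 3 lists. The dots of the best peaks by fold line up within 100 bp in 4 regions. Dots of other peaks line up within 8 bp in region 13-6.

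**Figure D5:**
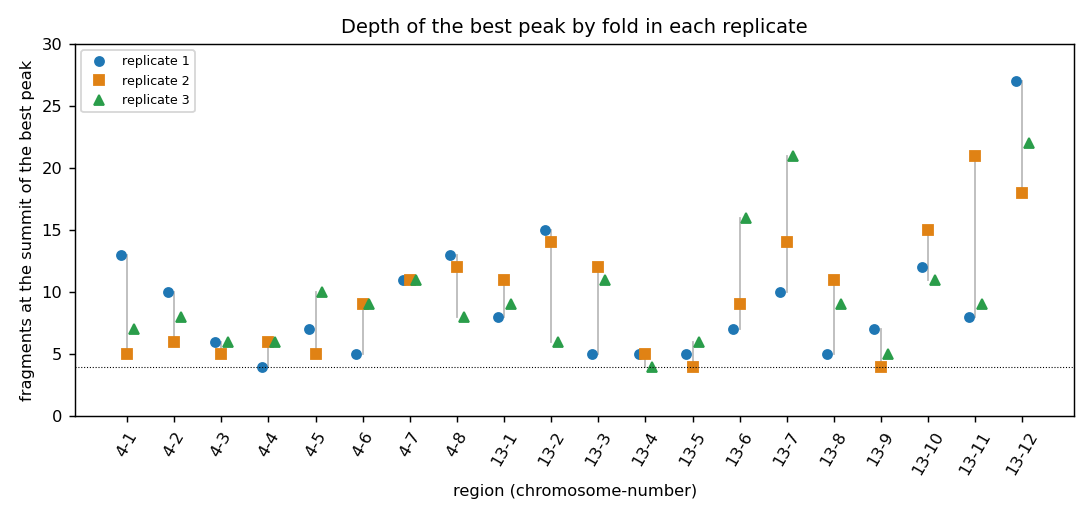
Fragments at the summit of the best peak by fold in each replicate, for the same 20 regions and with the same numbering; the dotted line marks 4 fragments, the lowest pileup of the members, and grey lines join the lowest and highest replicate. The values run from 4 to 27, and 4 regions reach 10 in every replicate.

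Across the 20 regions, summits of the best peaks lay within 100 bp of each other in 4 (20%). Among the 402 regions of all replicates on the other autosomes it was 58 (14.4%). At least 2 of the 3 summits lay within 100 bp in 8 of the 20 and in 232 of the 402 (57.7%). The median of the longest distance between summits was 1548 bp in the 20 and 1048.5 bp in the 402. Pileup of the best peak by fold reached 10 in every replicate in 4 of the 20 (20%) and in 143 of the 402 (35.6%). With peaks other than the best counted too, the regions from 99114112 and 114240164 also reached 10 in every replicate. A like count for the 402 is not given here. Length was 4866 bp at the median, against 3815.5 bp in the 402. With 20 regions, differences of this size were given as a description and were not tested.

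Chromosome 18 had no region of all replicates, but 5 of its 22 regions held peaks of 2 lists. The choice to name these 5 was made after values were seen. The region from 746216 to 747784 had summits 13 bp apart in replicates 1 and 3, with 6 and 4 fragments. That from 47015104 to 47015798 was the deepest, with 13 fragments in replicate 2 and 9 in replicate 3 and folds of 4.20 and 3.25. The other 3, from 3248054, 18564580 and 19204047, had 4 to 6 fragments in each list. The highest fold of the chromosome was 7.43 in replicate 1, at a peak of 608 bp from 18546957 to 18547564 with 10 fragments (exact 95% Poisson interval 4.80 to 18.4). It was 5.06 in replicate 2, from 43666421 to 43666988, and 5.30 in replicate 3, from 18559948 to 18562589. None of these 3 peaks was overlapped in another list. The single strongest peak of chromosome 18 by fold was thus not shared in any replicate. The next by fold, at 4.92, 4.20 and 4.61 in replicates 1, 2 and 3, was overlapped in 1 other list each time.

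The peaks of highest fold on chromosome 4 differed in how far they were shared. That of replicate 1, with a fold of 6.09 at 24578435 to 24582613, was overlapped in both other lists. In replicate 2 the highest fold was 6.43, from 1739407 to 1741725 with 8 fragments, and in replicate 3 it was 7.28, at a peak from 1207277 to 1208211 with 9 fragments. The former was overlapped in neither other list and the latter in 1. A fold of 7.28 was also reached in replicate 3 by the region of all replicates that starts at 54319370. On chromosome 13 the peak of highest fold was overlapped in both other lists in every replicate, at 8.67, 9.29 and 7.80.

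Summits often stood at the very edge of a peak. A summit less than 100 bp from an end of its peak was found in 38, 36 and 35 members, or 45.8%, 36.0% and 35.4%, where the background over all peaks of a list was 38.0%, 40.0% and 38.1%. The members' share was above the background in replicate 1 and below it in replicates 2 and 3. Edges themselves were repeated at nearly the background rate. A start within 10 bp of another list's start, or an end within 10 bp of another list's end, was found in 13, 12 and 10 members, or 15.7%, 12% and 10.1%, where the background was 14.7%, 9.98% and 12.4%. On chromosome 13 it was 9, 8 and 5 peaks, on chromosome 4 it was 4, 4 and 5, and on chromosome 18 it was 0 in every replicate.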

How the data were processed

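The tools named, per the submitters' processing notes, are MACS2, HISAT2, GATK, SAMtools and FastQC, with versions and parameters not given in the sources used here. Peaks were called on single immunoprecipitates, as the deposited narrowPeak lists show. The deposited lists give a fold, the authors' ratio of pileup to expected level, and −log10 p and −log10 q values; the deposited score, 10 times −log10 q with decimals dropped, was not used. The sources do not name the sample behind the expected level. Library depth is unknown.

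Pileups were the whole numbers up to 400 that gave the deposited fold and −log10 p within 0.0005 under a Poisson model. Overlap meant at least 1 bp, and union regions joined overlapping peaks of the 3 lists. Differences between members and the other 19 autosomes were formed within each list and tested over replicates by a two-sided exact sign-flip permutation test. Of 13 measures compared, none can pass at n = 3, so no adjustment was made. hg19 and hg38 lengths came from GenomeInfoDb 1.38.1, and coding genes per chromosome from RefSeq (GRCh38.p14). Regions named are all those of 3 replicates, and the highest fold and widest peak of each chromosome and list; other choices are marked as made after values were seen. Members and lists were chosen with earlier results of these data known. Scripts were tested on simulated data. Alternatives were a stricter q, peaks under 10 kb, other overlaps, depth classes, clusters, no chromosome 19, and leaving out each replicate; per-gene rates and chromosomes 4 and 18 alone were added later. Software was scipy 1.17.1, matplotlib 3.10.9, numpy 2.4.6 and pandas 2.3.3 under Python 3.11.15.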

Additional observations from a re-analysis of the deposited data

How the results depend on the processing

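The lower peak density of chromosomes 4, 13 and 18 kept its direction under every setting run, from -0.473 peaks per Mb with chromosomes 4 and 18 alone to -0.0759 among peaks whose −log10 q reached 5, and was -0.469 to -0.366 without 1 replicate. Per 100 coding genes it was -2.55. The difference in recurrence in both other lists changed sign under 4 settings. It was 5.33 percentage points for peaks whose −log10 q reached 5 (6, 10 and 15 members left), 1.46 with at least 50% overlap of both peaks, 1.02 with summits within 100 bp and 1.51 within depth classes. Without 1 replicate it was -6.47 to -1.18. For recurrence in at least 1 other list the sign turned within depth classes, at 1.78, and the difference shrank to -0.12 with at least 50% overlap and to -0.39 at that q, with replicates of both signs in each. The depth classes only compare peaks of like pileup, and no cause of these differences was tested. Regions of all replicates numbered 2 at that q, which keeps fewer peaks, and 29 to 34 without 1 replicate, where fewer lists have to share them. The difference in median width was 391 to 477 bp without 1 replicate and 1535.5 bp at that q. The difference in median pileup was -1 fragment without 1 replicate, and at that q -0.33, with -1, 1 and -1 in replicates 1, 2 and 3. Of 42 alternatives, 34 kept the sign of the mean or, for counts of regions, a broadly similar count, such as 29 against 20. Means near 0 whose replicates had both signs are among these 34. No paired analysis was possible because immunoprecipitates and inputs are the groups that share replicate numbers, and 0 inputs had a file among those used here; members and rest were compared within each list. Summits of 4 or 5 fragments limit what a single member can show.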
